A study of Homo sapiens with 2 samples.

Results

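The 10 genes described here are core parts of the transforming growth factor beta (TGF-beta) pathway, a list of named genes drawn up with earlier results of these data known: the ligand genes TGFB1 and TGFB2, the receptor genes TGFBR1 and TGFBR2, the signal transducers SMAD2, SMAD3 and SMAD4, and the feedback genes SMAD7, PMEPA1 and SKIL. All 10 were listed in both deposited files, which together list 19316 genes. Polyadenylated RNA was measured in 2 libraries of the established human cell line SNU449, derived from liver cancer. In the first library the cells carried lentivirus expressing a short hairpin RNA (shRNA) against FZD2, a frizzled receptor for Wnt ligands, and in the second a negative control shRNA. In both, RNA was collected 7 days after the virus was added, so both groups share viral delivery and culture in medium with serum. The labels do not say how many hairpin sequences were used, whether the transduced cells were selected or whether a line was cloned. The series design spells the line SNU499, and the labels give both a liver origin (cell type) and a prostate origin (growth protocol).

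TGF-beta ligands are secreted in a latent form, and once released they bring together the type II receptor (TGFBR2) and the type I receptor (TGFBR1), which are kinases. The type I receptor phosphorylates SMAD2 and SMAD3, which bind SMAD4, enter the nucleus and regulate genes. Among the genes switched on in this way are inhibitors of the pathway itself, and in liver cancer cells the pathway is known both for restraining growth and for driving invasion.

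Each group held 1 library, so differences stand without replicate error and without a test. Levels are in FPKM, reads scaled to transcript length and sequencing depth, which can be compared between genes. A ratio is log2 of (FPKM + 1) in the FZD2 shRNA library over (FPKM + 1) in the control, a scale on which low genes show too small a difference. A gene at 1 FPKM or more in at least 1 library is called measured, and one whose log2 ratio is 1 or more in size is called 2-fold higher or lower. Intervals are 95% intervals of the reads in these libraries and cover counting error only. The FZD2 shRNA library held 8234592 expected counts and the control 8436870. FZD2 itself (gene identifier 2535) was at 15.76 FPKM with the FZD2 shRNA and 59.45 FPKM in the control, a log2 ratio of -1.85, in the direction of its label. Its expected counts, 503.28 with the FZD2 shRNA and 1949.91 in the control, were not whole, a mark of reads divided among genes.

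Of the 10 genes, 1 was at least 2-fold lower with the FZD2 shRNA (SMAD7), 0 were at least 2-fold higher and 9 lay between. Over all 14377 measured genes, 7.41% were 2-fold lower and 15.2% were 2-fold higher, so the count of 1 in 10 was near the background. The median log2 ratio of the 10 was -0.11, beside 0.00 over all measured genes. Among genes whose counts are whole numbers in both libraries, it was -0.16 for the 5 such core genes and -0.25 over all. The 10 were thus not low beside genes counted alike. SMAD7 was lower and PMEPA1 higher, the latter by less than 2-fold, both also after a correction for GC content (-1.54 and 0.66). That correction also raised the median of genes whose counts are whole numbers, from -0.25 to -0.01. The median was then 0.29 for the 10 and 0.23 over all measured genes with a known GC content. The ligands, the receptors and SKIL had ratios from -0.16 to 0.15, but from -0.04 to 0.60 with that correction. The 3 SMAD transducers were each somewhat lower, 2 of them not so with that correction.

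The promoters of the 3 feedback genes are shown because these genes are known to be transcribed when SMADs are active and because their ratios differed. The ratios were -1.57 (SMAD7), 0.44 (PMEPA1) and -0.07 (SKIL), of which only SMAD7 was past 2-fold and SKIL lay within counting error of 0. Each promoter is the RefSeq window from 250 bases before to 50 bases after the annotated gene start on GRCh38.p14, printed 5′ to 3′ on the gene's strand. Capitals mark the short SMAD-binding element CAGAC on either strand. SMAD7 lies on the minus strand at chr18:48950916-48951215, PMEPA1 on the minus strand at chr20:57711423-57711722 and SKIL on the plus strand at chr3:170357465-170357764.
SMAD7: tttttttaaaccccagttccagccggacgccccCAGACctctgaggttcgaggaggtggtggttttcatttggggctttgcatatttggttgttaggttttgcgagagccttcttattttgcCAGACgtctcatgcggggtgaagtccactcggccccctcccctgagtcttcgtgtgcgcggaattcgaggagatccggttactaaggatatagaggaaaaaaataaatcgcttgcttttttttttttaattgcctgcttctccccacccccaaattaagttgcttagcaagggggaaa
PMEPA1: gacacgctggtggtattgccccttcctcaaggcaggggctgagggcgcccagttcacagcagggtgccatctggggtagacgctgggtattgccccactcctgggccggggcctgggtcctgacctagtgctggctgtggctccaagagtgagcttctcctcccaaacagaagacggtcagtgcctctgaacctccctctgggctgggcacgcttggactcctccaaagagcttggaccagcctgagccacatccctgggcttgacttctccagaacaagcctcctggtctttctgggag
SKIL: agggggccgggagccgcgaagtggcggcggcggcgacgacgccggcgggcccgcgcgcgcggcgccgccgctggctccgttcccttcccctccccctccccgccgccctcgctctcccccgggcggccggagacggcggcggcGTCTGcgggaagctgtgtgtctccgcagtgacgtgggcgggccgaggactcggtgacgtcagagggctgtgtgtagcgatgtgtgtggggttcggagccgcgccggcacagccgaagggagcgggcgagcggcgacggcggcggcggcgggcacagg
The SMAD7 window held 2 such elements, the SKIL window 1 and the PMEPA1 window 0. Over the windows of all 10 genes, 5 held this element, beside 45.3% of the 35116 promoters in the table. The SMAD palindrome GTCTAGAC was in 0 of the 10 windows and 0.202% of all promoters, and the AP-1 site TGANTCA in 0 of 10 and 7.71%. Both strands were searched for each, and CAGAC is not contained in the palindrome. A match describes letters in this window and says nothing of binding in these cells. Only 1 window per gene was searched, so a motif at another start site or farther away would be missed.

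**Figure D1:**
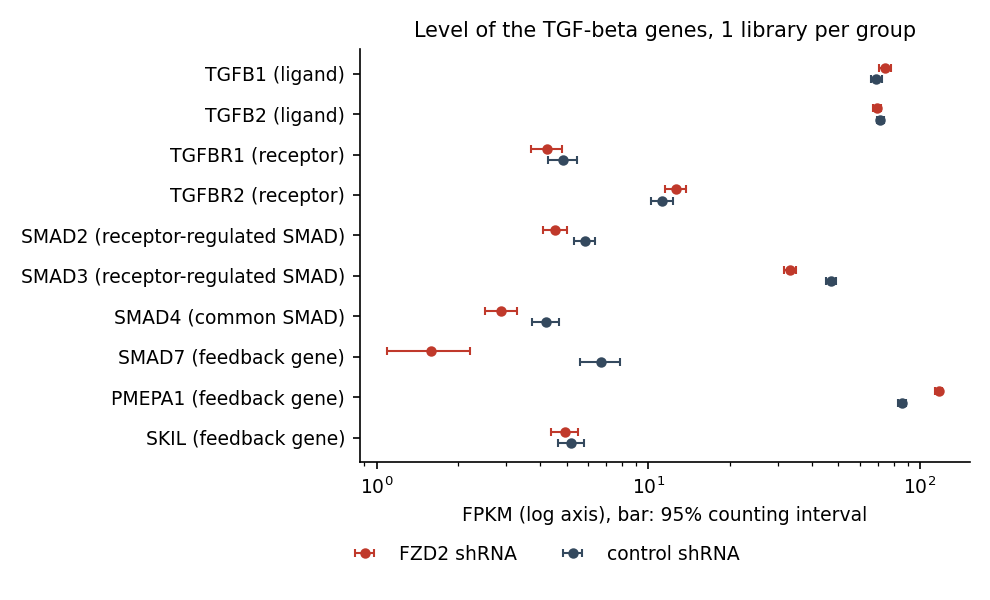
Level of each of the 10 TGF-beta genes in FPKM (log axis) in the FZD2 shRNA library (red) and the control library (dark blue), with bars for the 95% counting interval. PMEPA1, TGFB1 and TGFB2 sit above 69 FPKM in both libraries, while SMAD7 moves from 6.67 FPKM in the control to 1.58 FPKM.

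The 2 ligand genes were among the most abundant of the 10. TGFB1 was at 74.21 FPKM with the FZD2 shRNA and 69.09 FPKM in the control, a log2 ratio of 0.10. Its count log2 ratio was 0.10, with an interval from 0.00 to 0.20. TGFB1 therefore differed by less than the 2-fold limit, and its level exceeded that of 93.2% of measured genes with the FZD2 shRNA and 93.1% in the control. TGFB2 was at 69.55 FPKM with the FZD2 shRNA and 71.43 FPKM in the control, a log2 ratio of -0.04. The order of TGFB1 and TGFB2 was not the same in both libraries, and their counting intervals overlapped in each.

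The TGFB2 value rests on how reads were divided with an overlapping gene. TGFB2-OT1 is a noncoding RNA gene that GENCODE annotates on the same strand within the last part of TGFB2. It was listed at 39.24 FPKM with the FZD2 shRNA and 99.01 FPKM in the control, a log2 ratio of -1.31. Neither gene had a whole expected count, but the counts of both summed to whole numbers, 3842 with the FZD2 shRNA and 4778 in the control. TGFB2-OT1 held 11.5% of that sum in the first library and 23.9% in the second. On the summed reads, the count log2 ratio was -0.28 (-0.34 to -0.22), beside -0.06 (-0.13 to 0.01) for TGFB2 as listed. Whether these reads came from TGFB2-OT1 transcripts or from the end of TGFB2 messenger RNA cannot be told apart in a table of counts per gene.

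The receptor genes were at lower levels, and as listed each differed by less than counting error. With the GC trend taken out their ratios were 0.36 (TGFBR1) and 0.60 (TGFBR2), outside their counting intervals. TGFBR1, the type I receptor kinase, was at 4.23 FPKM with the FZD2 shRNA and 4.85 FPKM in the control, with 223 and 264 counts. Its count log2 ratio was -0.21 (-0.47 to 0.05). TGFBR2, the type II receptor that binds ligand first, was at 12.61 FPKM with the FZD2 shRNA and 11.27 FPKM in the control. Its count log2 ratio was 0.16 (-0.03 to 0.34). TGFBR2 was thus the more abundant receptor in both libraries, at 2.98 times the FPKM of TGFBR1 with the FZD2 shRNA and 2.32 times in the control.

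All 3 transducer genes were lower with the FZD2 shRNA beyond counting error, although SMAD2 and SMAD4 were not lower once a trend with GC content was taken out (0.22 and 0.09), and 0 of the 3 reached 2-fold. SMAD3 was at 33.12 FPKM with the FZD2 shRNA and 47.07 FPKM in the control, a log2 ratio of -0.49. Its count log2 ratio was -0.58 (-0.67 to -0.48). SMAD2, its close relative, was at 4.54 FPKM with the FZD2 shRNA and 5.82 FPKM in the control (log2 -0.30). SMAD3 was therefore the main receptor-regulated SMAD transcript of this pair in both libraries, at 7.30 times the FPKM of SMAD2 with the FZD2 shRNA and 8.09 times in the control. SMAD4, the shared partner of all receptor-regulated SMADs, was at 2.87 FPKM with the FZD2 shRNA and 4.19 FPKM in the control (log2 -0.42). These sizes were common in the data: 25.7% of measured genes had a lower log2 ratio than SMAD3, 29.3% than SMAD4 and 35.4% than SMAD2.

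SMAD7 had the lowest ratio of the 10. SMAD7, which blocks the type I receptor and recruits ubiquitin ligases to it, was at 1.58 FPKM with the FZD2 shRNA and 6.67 FPKM in the control, a log2 ratio of -1.57 or 2.97-fold lower. The value rests on 34 and 140 expected counts, both whole, and the count log2 ratio was -2.01 (-2.59 to -1.46). SMAD7 went from the 6th most abundant of the 10 in the control to the last with the FZD2 shRNA. Of the 8154 measured genes with whole counts in both libraries, 138 (1.69%) had a ratio at or below that of SMAD7, and 10.2% were at least 2-fold lower. With a pseudocount of 5 FPKM the SMAD7 ratio was -0.83, short of 2-fold.

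PMEPA1 went the other way. PMEPA1, a membrane protein that holds receptor-regulated SMADs away from the receptor, was at 116.97 FPKM with the FZD2 shRNA and 85.75 FPKM in the control, a log2 ratio of 0.44. Its count log2 ratio was 0.42 (0.36 to 0.49), on 4507 and 3442 counts. PMEPA1 fell short of 2-fold, and its size was common in the data, as 68.8% of measured genes had a lower log2 ratio. It was the most abundant of the 10 genes in both libraries, and the overlapping noncoding gene NKILA was at 4.2 and 4.27 FPKM. SKIL, which encodes the SMAD co-repressor SnoN, was at 4.92 FPKM with the FZD2 shRNA and 5.2 FPKM in the control. Its count log2 ratio was -0.09 (-0.32 to 0.15), and its ratio with the GC trend taken out was 0.46. PMEPA1 stood at 74.0 times the FPKM of SMAD7 with the FZD2 shRNA and at 12.9 times in the control.

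**Figure D2:**
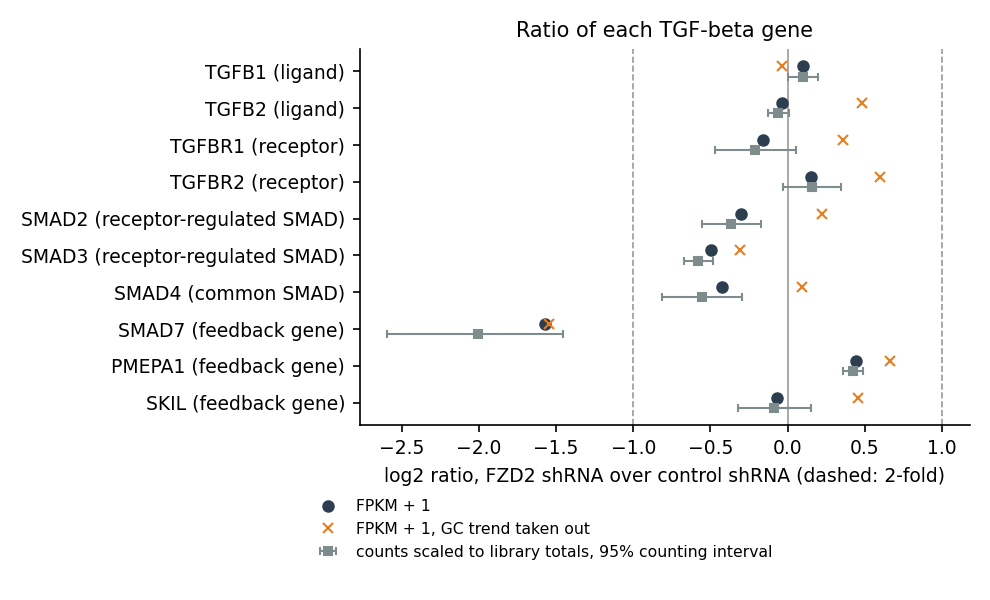
Log2 ratio of FZD2 shRNA over control shRNA for each of the 10 genes, from FPKM + 1 (circles), from the same values with the GC trend taken out (crosses) and from counts scaled to library totals with 95% counting intervals (squares), with dashed lines at 2-fold. SMAD7 alone lies beyond a dashed line, at -1.57 on FPKM + 1 and -1.54 with the trend taken out.

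The order of levels was PMEPA1, TGFB1, TGFB2, SMAD3, TGFBR2, SKIL, SMAD2, TGFBR1, SMAD4 and SMAD7 with the FZD2 shRNA. In the control it was PMEPA1, TGFB2, TGFB1, SMAD3, TGFBR2, SMAD7, SMAD2, SKIL, TGFBR1 and SMAD4. With the FZD2 shRNA the counting intervals of neighbours overlapped for TGFB1 and TGFB2, for SKIL and SMAD2 and for SMAD2 and TGFBR1. In the control they overlapped for TGFB2 and TGFB1 and for each neighbouring pair from SMAD7 down to SMAD4. The deposited transcript length per gene differed between libraries by -4.52% (SMAD3) to 5.16% (SMAD7) of the control length. It was the same in both for TGFB1 and SMAD4, which had 1 listed transcript each. With 2 libraries no likeness of pattern between genes can be ranked.

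The ratios tended to rise with GC content, the share of G and C bases in a transcript. The sign of most of the small ratios moved once this trend was taken out. Among genes with whole counts, the median log2 ratio was -0.54 in the lowest of 10 GC bins and 0.23 in the highest. TGFB2, TGFBR1, SMAD2, SMAD4 and SKIL had transcripts of 36.1% to 41.1% GC, where the trend was below 0. With the trend taken out, these 5 had ratios from 0.09 (SMAD4) to 0.48 (TGFB2), TGFB1 was at -0.04 and SMAD3 at -0.31. The direction of 6 of the 10 genes therefore depended on that correction, and that of TGFB2 and SKIL also on the scaling, at 0.12 and 0.07 in TPM (FPKM rescaled to a fixed sum), whereas SMAD7 (58.7% GC) was at -1.54, PMEPA1 at 0.66 and TGFBR2 at 0.60. The trend was subtracted without recentring, so the median of genes with whole counts also rose, from -0.25 to -0.01. In the changed signs, the parts of GC content and of this rise were not told apart. The part of GC content in these ratios was not tested beyond this correction. An expected count that is not whole marks reads divided among genes (shared reads), as found for 5 of the 10: TGFB1, TGFB2, SMAD2, SMAD4 and SKIL. These 5 were all among the 6 genes whose direction changed, and the trend was not fitted to genes with shared reads. With the trend taken out, the median over all measured genes with a known GC content was 0.23. The corrected ratios of these 5 thus also carry an offset between the 2 classes of gene. SMAD7, PMEPA1, SMAD3 and both receptors had whole counts.

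**Figure D3:**
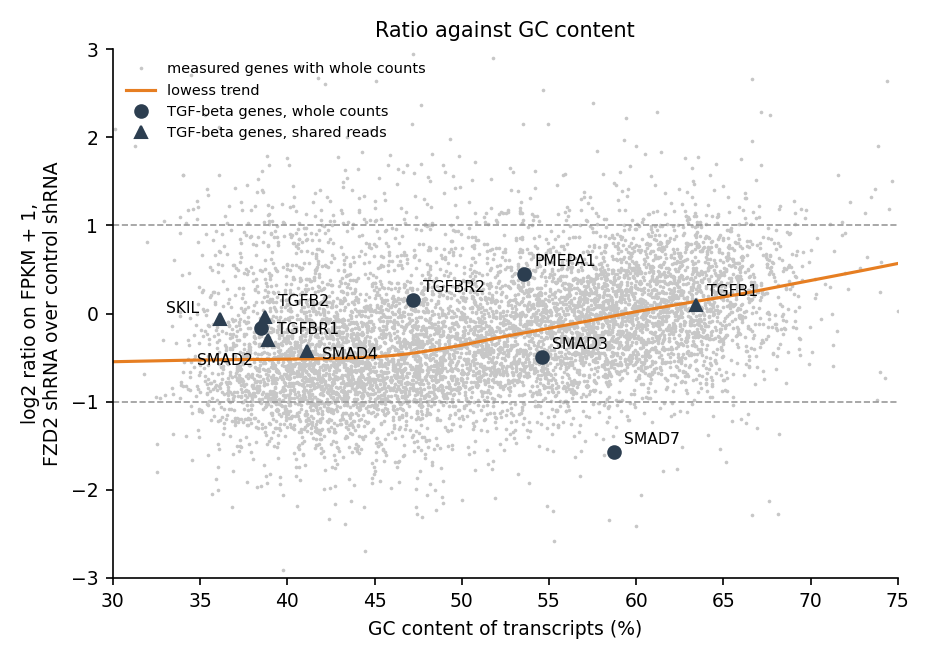
Log2 ratio on FPKM + 1 against transcript GC content (%) for measured genes with whole counts (grey points, those beyond the axis limits not drawn), the lowess trend through them (orange line) and the 10 TGF-beta genes (circles for whole counts, triangles for shared reads). SMAD7 lies at -1.57, below the trend at its GC content, while SMAD2, SMAD4 and TGFBR1 lie close to or above it.

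The wider pathway was read from 40 further genes listed by role, of which 33 were measured. Of these 33, 1 was at least 2-fold higher and 2 were lower, and the median log2 ratio was -0.13. Over all measured genes 15.2% were higher and 7.41% lower, so these counts do not stand above the background. Both lower genes are known to act in the release of latent TGF-beta. THBS1, which encodes thrombospondin 1, was at 20.24 FPKM with the FZD2 shRNA and 63.41 FPKM in the control, a log2 ratio of -1.60. ITGAV, the integrin alpha-v chain of the receptors that free latent ligand, was at 11.01 FPKM with the FZD2 shRNA and 25.41 FPKM in the control (log2 -1.14). Its ratio was -0.62 with the GC trend taken out and fell short of 2-fold with a pseudocount of 5 FPKM. Of the 9 measured genes of ligand storage and activation, 8 were below 0, beside 64.7% of all measured genes with whole counts, as all 9 had.

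FOXH1, a DNA-binding partner of SMAD2 and SMAD4, was the higher gene, at 13.79 FPKM with the FZD2 shRNA and 4.35 FPKM in the control (log2 1.47). KIFC2, a kinesin gene that overlaps it in the RefSeq table, was at 26.04 FPKM with the FZD2 shRNA and 12.75 FPKM in the control. Both had whole counts in each library, so no reads were listed as divided between them, and no source used here states whether counting used strand. Among 8 turnover enzymes, 0 reached 2-fold, and their median log2 ratio was -0.41, or 0.02 with the GC trend taken out. PPM1A, a phosphatase of SMAD2 and SMAD3, was at 2.63 FPKM with the FZD2 shRNA and 6.11 FPKM in the control (log2 -0.97). WWP1, a ubiquitin ligase, was at 3.7 FPKM with the FZD2 shRNA and 8.02 FPKM in the control (log2 -0.94), and both were past 2-fold on counts scaled to CPM (-1.16 and -1.07) but at -0.45 and -0.42 with the GC trend taken out. SMURF2, a ubiquitin ligase that SMAD7 brings to the receptor, was at 9.84 FPKM with the FZD2 shRNA and 15.35 FPKM in the control (log2 -0.59, or -0.10 with the GC trend taken out, shared reads).

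Of the remaining receptors and SMADs, 0 of 9 measured reached 2-fold. The co-receptor gene TGFBR3 was at 3.88 FPKM with the FZD2 shRNA and 2.43 FPKM in the control (log2 0.51, shared reads). SMAD6, the inhibitory SMAD of the bone morphogenetic protein branch and the closest relative of SMAD7, was at 5.69 FPKM with the FZD2 shRNA and 8.87 FPKM in the control (log2 -0.56). SMAD6 and SMAD7 were thus both lower, with count log2 ratios of -0.64 (-0.96 to -0.33) and -2.01 (-2.59 to -1.46) whose intervals did not overlap.

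**Figure D4:**
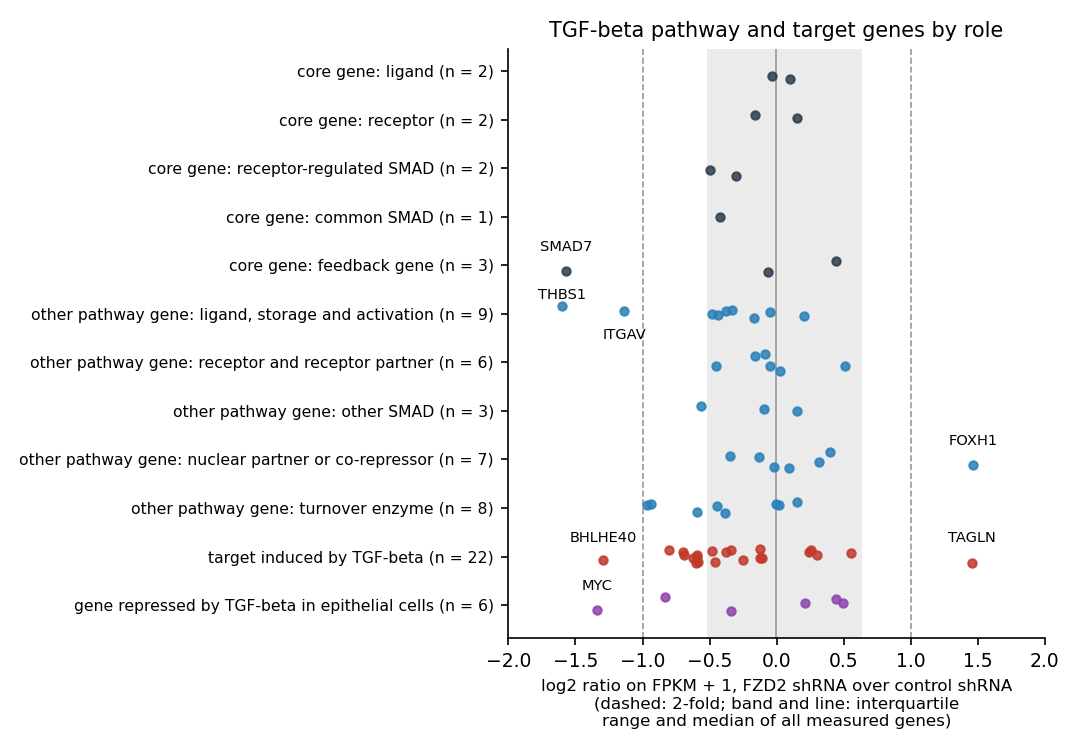
Log2 ratio on FPKM + 1 of each measured gene (1 point per gene, spread vertically only for legibility), grouped by role, for the 10 core genes, other pathway genes, and genes that TGF-beta induces or represses, with dashed lines at 2-fold and a band for the interquartile range of all measured genes. Most points lie between the dashed lines, and the genes past them are named.

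Few genes that TGF-beta is known to induce differed by 2-fold. Of 24 listed, 22 were measured, of which 1 was at least 2-fold lower, 1 was higher and 17 were below 0, with a median log2 ratio of -0.42. Over all measured genes 7.41% were 2-fold lower and 15.2% higher, and over those with whole counts 10.2% and 4.19%. The 2-fold counts of the targets thus do not stand above the background. The share below 0 was 77.3%, beside 50.1% of all measured genes and 64.7% of those with whole counts. With the GC trend taken out, 12 of the 21 with a known GC content were below 0 (57.1%, beside 37.2% of all such measured genes). These 2 shares are not alike, since 19 of the 21 targets had whole counts. The 37.2% also covers genes with shared reads, to which the trend was not fitted, and the median of all such genes was then 0.23. The members with whole counts had a median of -0.47, beside -0.25 over all genes with whole counts. With the GC trend taken out these medians were -0.25 and -0.01. This list holds many genes that other pathways also regulate.

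BHLHE40, a transcriptional repressor, was the lower target, at 7.71 FPKM with the FZD2 shRNA and 20.37 FPKM in the control (log2 -1.29). It fell short of 2-fold with a pseudocount of 5 FPKM, and its antisense neighbour BHLHE40-AS1 was at 5.7 FPKM with the FZD2 shRNA and 0.74 FPKM in the control. TAGLN, the actin-binding protein transgelin, was the higher target, at 166.01 FPKM with the FZD2 shRNA and 59.71 FPKM in the control (log2 1.46). Next in size were the cell-cycle inhibitor CDKN1A (log2 -0.81), the LIM-domain gene LMCD1 (-0.70), the TGF-beta-inducible factor KLF10 (-0.69, or -1.04 on counts scaled to CPM and -0.23 with the GC trend taken out) and the collagen gene COL1A2 (-0.62). BHLHE40 and TAGLN, both classed as induced by TGF-beta, thus lay on opposite sides of 0.

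Of 6 genes that TGF-beta is known to repress in epithelial cells, 1 was at least 2-fold lower and 0 were higher, with a median log2 ratio of -0.06. Over all measured genes 7.41% were lower and 15.2% higher, or 10.2% and 4.19% of those with whole counts. A count of 1 among 6 genes does not stand apart from those shares. The growth regulator MYC was at 25.28 FPKM with the FZD2 shRNA and 65.44 FPKM in the control (log2 -1.34). Among the ID genes, inhibitors of differentiation, ID1 was at 31.49 FPKM with the FZD2 shRNA and 22.85 FPKM in the control (log2 0.45). ID2 had a log2 ratio of -0.34 on 30 and 42 counts, and ID3 one of -0.83 on 37 and 76 counts. CDC25A, a cell-cycle phosphatase, was at 0.50 and CDH1, which encodes E-cadherin, at 0.21.

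Markers of other cell types were read in the same libraries, since in bulk RNA fewer cells of a type and less RNA per cell cannot be told apart. Of 7 hepatocyte markers, 0 were measured, with ALB and APOA1 unlisted in the control and TTR unlisted in both, so these markers of the labelled liver origin were absent or nearly so. Fibrinogen genes, which hepatocytes also express and which were looked up after their values were seen, were present, with FGB at 105.3 FPKM with the FZD2 shRNA and 91.67 FPKM in the control, and FGG at 123.36 and 100.72 FPKM. Of 6 prostate markers 2 were measured, with KLK3, KLK2, TMPRSS2 and FOLH1 unlisted in both. Of 7 fibroblast markers 3 were measured, summing to 320.8 FPKM with the FZD2 shRNA and 410.3 FPKM in the control, nearly all from COL1A1 and COL1A2, with PDGFRA, PDGFRB, LUM and DCN at 0.33 FPKM or less. Of 6 endothelial markers 2 were measured (sums of 4.13 and 2.06 FPKM, VWF unlisted in both). PECAM1, with shared reads, was at 2.33 FPKM with the FZD2 shRNA and 0.41 FPKM in the control (log2 1.24). ENG was at 1.54 and 1.5 FPKM. Of 5 leukocyte markers 4 were measured (sums of 94.23 FPKM with the FZD2 shRNA and 27.74 FPKM in the control, with CD3E unlisted in both). LYZ was at 71.47 FPKM with the FZD2 shRNA and 12.31 FPKM in the control (log2 2.44), and CD68 at 19.45 and 12.15 FPKM, both with shared reads. The other measured leukocyte markers hardly differed, with PTPRC (shared reads) at 1.61 and 1.56 FPKM and CD14 (whole counts) at 1.7 and 1.72 FPKM. COL1A1, COL1A2, DCN and ENG also belong to the TGF-beta lists. The part of other cell types in the ratios above was not tested.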

How the data were processed

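Per the labels' protocols, messenger RNA was captured on oligo(dT) beads, then fragmented and primed at random. Per the submitters' processing notes, Bowtie2, HISAT and hg19 were used, without versions or roles, and no source used here gives the counter, annotation or strand setting. The deposited expected counts are reads per gene as estimated by the authors, not normalized, and the deposited FPKM values are scaled by them for length and depth. The files also give a length per gene, per the file headers. Genes unlisted in a file were set to 0. Symbols came from the RefSeq table (GRCh38.p14), by gene identifier. Since that build is not hg19, only promoter windows carry coordinates.

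The main measure was log2((FPKM + 1)/(FPKM + 1)), with no test because each group held 1 library. Count ratios used rounded expected counts over library totals (3 counts were 3.64e-05% and 3.56e-05% of them), with exact conditional binomial 95% intervals. Levels carry exact Poisson intervals. Reads copied in amplification are not independent, so intervals cover counting error only. Counts were called whole to a tolerance of 0.001. GC content came from GENCODE 29 transcripts matched by RefSeq accession (96.1% of measured genes), and a lowess trend (fraction 0.3), fitted to genes with whole counts, was taken out in an alternative, which also moves the median of those genes to about 0. TMM factors were from edgeR 4.0.16, other steps from Python 3.11.15, pandas 2.3.3, SciPy 1.17.1 and statsmodels 0.14.6. The code of the size and interval rules was checked on simulated counts drawn with counting error alone. Such counts cannot show how the rules hold under replicate spread, shared reads or a GC trend.

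The 10 genes and all lists (40 further pathway genes, 24 induced and 6 repressed genes, and hepatocyte, prostate, fibroblast, endothelial and leukocyte markers) were chosen with earlier results of these data known. The genes named were FZD2, the 10, and in each other pathway or target list those past 2-fold, then the largest ratios until 6 were named, with at least 1 per role. Cell type markers were named apart from this rule. Overlapping neighbours (TGFB2-OT1, KIFC2, NKILA, BHLHE40-AS1) were named after their values were seen. Some genes are not reported here and were left out of their lists.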

Additional observations from a re-analysis of the deposited data

How the results depend on the processing

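With 1 library per group, none could be left out. No paired analysis was possible because each group holds 1 library and no test was run. SMAD7 stayed 2-fold lower in 6 of 7 alternatives of scale, with log2 ratios from -2.01 to -0.83, and 0 of the other 9 core genes reached 2-fold in any of the 7. Signs changed for 6 of the 10 with the GC trend taken out and for 2 in TPM, where the median of all genes moved to 0.14. The count of core genes 2-fold lower was 0 with a pseudocount of 5 FPKM and 0 at a 4-fold limit. Other pathway genes 2-fold lower numbered 4 with a pseudocount of 0.1 FPKM and 4 in CPM (WWP1 and PPM1A added in each), 1 with a pseudocount of 5 FPKM, 1 with the GC trend taken out, 5 at 1.5-fold and 0 at 4-fold. Induced targets 2-fold lower numbered 3 with a pseudocount of 0.1 FPKM and 3 in CPM, 0 with a pseudocount of 5 FPKM, 9 at 1.5-fold and 0 at 4-fold. Repressed genes lower numbered 2 at 1.5-fold and 0 at 4-fold, and at 4-fold the higher counts of other pathway genes and of targets were 0. The limits of fold size change these counts by construction. The cause of the other shifts was not tested. Adding the TGFB2-OT1 reads to TGFB2, chosen after seeing the data, gave -0.28 in CPM. SMAD7, on 34 counts in the lower library, is the core gene least fixed by depth.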
